A study of Mus musculus with 4 samples.

Results

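The mitochondrial fusion and fission machinery was followed in whole mouse hearts with and without Klf9, a Krüppel-like transcription factor with zinc fingers. It was taken as 10 genes by symbol, and all 10 were found among the 17485 genes of the deposited table. They comprise 3 fusion genes (Mfn1, Mfn2 and Opa1), 5 fission genes (Dnm1l, Fis1, Mff, Mief1 and Mtfp1) and 2 inner membrane proteases (Oma1 and Yme1l1). RNA sequencing compared 2 libraries of hearts from wild-type mice with 2 from Klf9 knockout (Klf9 KO) mice. All 4 carried the labels male and 8 weeks of age, and no treatment other than food and drink. The genetic background, the deleted part of Klf9 and whether the deletion was confined to a cell type are not stated in the labels. The stated purpose was to learn how Klf9 bears on the function of cardiac mitochondria.

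Mitochondria continually join and divide. Fusion of the outer membrane is carried out by the mitofusins Mfn1 and Mfn2 and that of the inner membrane by the dynamin-like GTPase Opa1. Fission needs the cytosolic dynamin-related GTPase Dnm1l (Drp1), which is brought to the outer membrane by adaptors, and the inner membrane proteases Oma1 and Yme1l1 cut Opa1 into long and short forms that set the balance between both processes. Heart muscle is packed with mitochondria and depends on this machinery to keep its energy supply.

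The deposited table held log2 ratios between libraries, from which an expression value per library was recovered. Its unit was not given and the sequencing depth is unknown, so no depth-based interval is given and levels are not compared between genes. Sums over a list, given below for libraries side by side, add values in which a gene's level can be too low by a common factor. Summed over genes, the recovered values came to 426032 and 489534 in wild type and 409359 and 418974 in Klf9 KO, replicate 1 first here and throughout. Klf9 itself stood at 74.9 and 58.8 in wild type and at 2.66 and 1.99 in the knockout, so both knockout libraries had the low level that their label calls for. Knockout replicate 2 went against its label of male sex: the Y-linked genes Kdm5d, Uty, Ddx3y and Eif2s3y stood at 0.01, 0.58, 0.01 and 0.73 there, against 4.01, 3.57, 7.82 and 26.96 in knockout replicate 1. Results are therefore given with and without that library. Nothing in the labels says that each library is a different animal. The Y-linked values above set the 2 knockout libraries apart, so they are not repeats of 1 animal. The wild-type libraries may be, and their part of the spread that the p-values rest on may therefore be technical.

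Knockout hearts had less RNA of 6 of the 10 genes. Mfn1, Opa1, Dnm1l, Mtfp1, Oma1 and Yme1l1 fell, to between 38.2% and 54.5% of their wild-type mean value. Mfn2, Fis1, Mff and Mief1 did not pass the test, and 0 genes rose. The fall was on both sides of the balance: 2 of 3 fusion genes, 2 of 5 fission genes and both proteases were lower. The test was limma on log2(value + 1) over the 12135 genes that reached a value of 1 in 2 or more libraries, at a Benjamini-Hochberg adjusted p below 0.05. By that rule 17.0% of all tested genes were lower and 27.7% were higher. All 10 genes passed the filter on low values.

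The median log2 fold change of the 10 genes was -0.84, against 0.12 over all tested genes. After RLE scaling (each library divided by its median ratio to the geometric mean of the 4) these medians were -0.95 and 0.02, and the same 6 genes fell, where 20.6% of all tested genes did. In 6 of the 10 genes both knockout libraries lay below both wild-type libraries, which held for 30.2% of all tested genes. Mief1 alone of the 10 had both knockout libraries above both wild-type libraries, as did 45.2% of all tested genes. In 6 of the 10 genes the knockout libraries were closer to each other than the wild-type libraries were, as the plot of expression values by library shows. The share of all tested genes for which this held was not computed.

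Among the fusion genes, the mitofusins went apart. Mfn1, which tethers and fuses outer membranes, stood at 131 and 147 in the wild-type hearts and at 74.6 and 70.4 in the knockout hearts. Both knockout libraries were far below both wild-type libraries, and each group was close within itself. The fitted log2 fold change was -0.93 ± 0.20 (SE, n = 2 per group; limma adjusted p = 0.00507). The gene missed the threshold when either knockout library was left out, at -0.89 without replicate 2 (adjusted p = 0.107) and at -0.97 without replicate 1 (adjusted p = 0.0646).

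Mfn2, the paralog that also ties mitochondria to the endoplasmic reticulum, stood at 277 and 191 in wild type and at 241 and 227 in the knockout. Both knockout values lay between the wild-type values. A log2 fold change of 0.02 ± 0.24 was fitted (SE; limma adjusted p = 0.945), with a 95% interval from -0.52 to 0.57. The sign turned after RLE scaling (-0.09), after upper quartile scaling (-0.03), without wild-type replicate 2 (-0.24) and without knockout replicate 1 (-0.02). The interval leaves room for a rise or a fall of that size, so Mfn2 is not shown to be unaltered.

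Opa1, the inner membrane fusion GTPase that also shapes cristae, stood at 50.7 and 51.2 in wild type and at 31.1 and 23.0 in the knockout. The wild-type libraries were nearly equal, while knockout replicate 2 stood at -0.43 on the log2 scale against knockout replicate 1. The fitted log2 change was -0.90 ± 0.20 (SE; limma adjusted p = 0.0067). Without knockout replicate 2 the change was -0.69 (adjusted p = 0.180), and without knockout replicate 1 it was -1.11 (adjusted p = 0.0145). The table gives 1 value per gene, so the splice forms of Opa1 are not resolved, and the cleavage of its protein is not measured by RNA.

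Of the fission genes, Dnm1l and Mtfp1 fell. Dnm1l, the GTPase that constricts the organelle, stood at 47.3 and 63.5 in wild type and at 28.5 and 27.1 in the knockout. The knockout libraries were close to each other, and even the lower wild-type library was well above them. Dnm1l changed by -0.96 ± 0.20 on the log2 scale (SE; limma adjusted p = 0.0052). Without knockout replicate 2 it was -0.92 and fell short of the threshold (adjusted p = 0.0588), while without knockout replicate 1 it passed at -0.99 (adjusted p = 0.0332).

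Mtfp1, an inner membrane protein whose loss in cells lengthens mitochondria, had the lowest fold change of the 10 genes. It stood at 84.2 and 91.1 in wild type and at 33.0 and 33.9 in the knockout, a mean of 38.2% of that in wild type. The libraries of each group nearly coincided, and the gap between the groups was many times their spread. Its fitted log2 change was -1.36 ± 0.18 (SE; limma adjusted p = 0.000478), and 4.20% of all tested genes had a lower one. Mtfp1 passed under all 12 alternatives run, with log2 fold changes from -1.48 to -1.31. Its adjusted p without knockout replicate 2 was 0.00276.

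Of the adaptors that bring Dnm1l to the outer membrane, Fis1, Mff and Mief1 did not pass the test. Mief2 (MiD49), a further adaptor that is not among the 10 genes and was named after its values were seen, fell from 11.3 and 10.6 to 7.06 and 7.81 (-0.50 ± 0.17, limma adjusted p = 0.0367). It did not pass without either one of the knockout libraries, or with no filter on low values. Fis1, the small tail-anchored adaptor, stood at 61.9 and 73.4 in wild type and at 58.7 and 70.3 in the knockout. The groups overlapped, and each held a low and a high library. Its log2 fold change was -0.07 ± 0.20 (SE; limma adjusted p = 0.810; 95% interval -0.52 to 0.39), and its sign turned without wild-type replicate 2 (0.05) or knockout replicate 1 (0.06).

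Mff, a main receptor of Dnm1l, stood at 44.6 and 73.6 in wild type and at 46.3 and 44.8 in the knockout. Only wild-type replicate 2 stood apart, and wild-type replicate 1 lay just below both knockout libraries. For Mff the fitted log2 change was -0.33 ± 0.25 (SE; limma adjusted p = 0.308; 95% interval -0.88 to 0.23). Wild-type libraries decided the value: without replicate 1 it was -0.68 and passed (adjusted p = 0.00108), and without replicate 2 it was 0.03 (adjusted p = 0.870).

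Mief1 (MiD51), a receptor that can hold Dnm1l in an inactive state, was the only one of the 10 genes whose knockout values both exceeded the wild-type values. It stood at 6.34 and 6.39 in wild type and at 8.73 and 8.49 in the knockout, with nearly equal libraries in each group. Its log2 fold change was 0.38 ± 0.16 (SE; limma adjusted p = 0.0844; 95% interval 0.02 to 0.75 before adjustment) and did not pass. Leaving out wild-type replicate 1 or 2 gave 0.38 or 0.39, and Mief1 then passed as higher. Leaving out knockout replicate 1 or 2 gave 0.37 or 0.40, and Mief1 did not pass. After RLE scaling the change was 0.28 (adjusted p = 0.191).

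Some reads of these genes can be shared with annotated neighbours. In the GENCODE annotation of mouse build GRCm38, exons of Dnm1l overlap the antisense gene Gm49521 by 196 bases and those of Mff overlap C430014B12Rik on the other strand by 195 bases. An exon of Mief1 overlaps AC140267.1 on its own strand by 213 bases. The sources used here do not say whether reads were counted by strand, and the values of these 3 genes may include reads of their neighbours.

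Both inner membrane proteases fell. Oma1, a zinc metalloprotease that cuts Opa1 under stress, stood at 6.58 and 7.38 in wild type and at 2.85 and 3.21 in the knockout. The groups were clearly apart and the libraries within each were close. Oma1 changed by -0.99 ± 0.17 on the log2 scale (SE; limma adjusted p = 0.00187), and like Mtfp1 it passed under all 12 alternatives, with values from -1.20 to -0.91. Without knockout replicate 2 the change was -1.05 (adjusted p = 0.00697).

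Yme1l1, the ATP-dependent protease that cuts Opa1 under basal conditions, stood at 12.5 and 20.8 in wild type and at 9.79 and 8.35 in the knockout. The groups did not overlap, but wild-type replicate 2 was well above wild-type replicate 1, by 0.74 on the log2 scale. Its log2 fold change was -0.77 ± 0.24 (SE; limma adjusted p = 0.0283). The size depended on the wild-type libraries, with -1.12 without replicate 1 and -0.42 without replicate 2. It did not pass without knockout replicate 2 (-0.67, adjusted p = 0.159) or without the filter on low values (adjusted p = 0.0863).

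**Figure D1:**
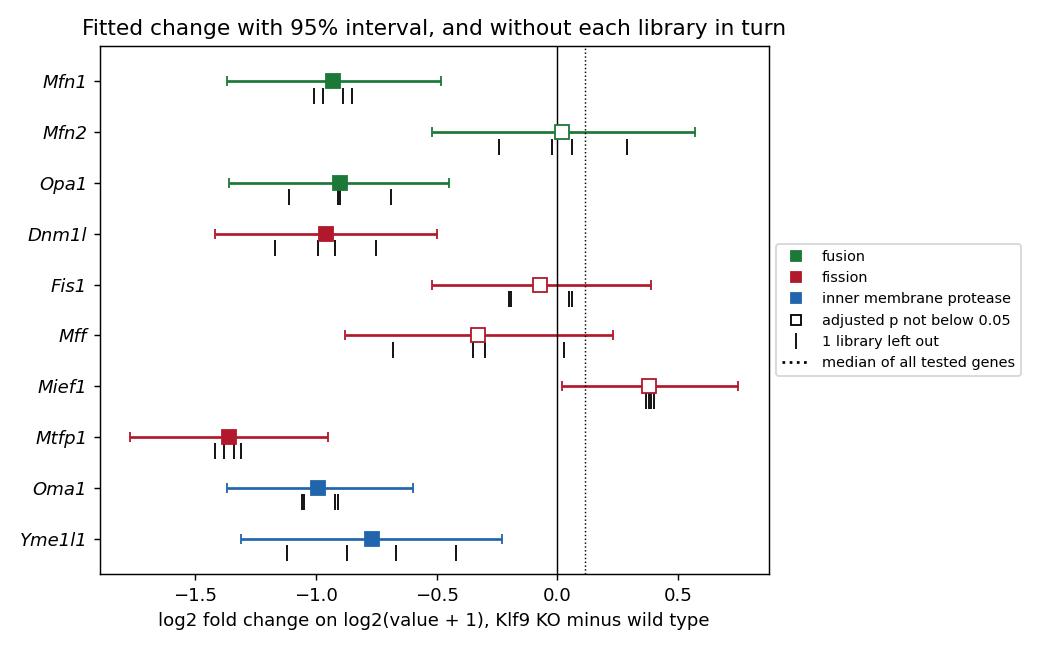
Log2 fold change of each gene on log2(value + 1), Klf9 KO minus wild type, with its 95% interval (bars) and the values obtained without each of the 4 libraries in turn (ticks below). Filled squares passed limma at an adjusted p below 0.05; the ticks of Mtfp1 span -1.42 to -1.31, whereas those of Mff span -0.68 to 0.03.

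Calls were lost when either knockout library was left out, and more of them without replicate 2, the library at odds with its sex label. Without it 2 of the 10 genes, Mtfp1 and Oma1, were lower, where 9.06% of all tested genes were. That fit leaves a single knockout library, which is assumed to vary as the wild-type pair does. The log2 fold changes of the 6 genes lay between -1.38 and -0.67 in it, and between -1.34 and -0.87 without knockout replicate 1. Their negative sign was fixed in advance, because both knockout libraries lay below both wild-type libraries in each of the 6.

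In the authors' deposited table, all 4 pairwise log2 ratios of knockout over wild type were negative for the 6 genes that fell (the 4 ratios share libraries and are not independent). The values used here were recovered from these ratios, so their signs are no separate evidence. They restate that both knockout libraries lay below both wild-type libraries, which held for 30.2% of all tested genes. Those of Mtfp1 ran from -1.47 to -1.31, those of Mfn1 from -1.06 to -0.81 and those of Yme1l1 from -1.32 to -0.35. For Mief1 the authors' deposited table had all 4 ratios between 0.41 and 0.46. For Mfn2 it had -0.20 and -0.28 against wild-type replicate 1 and 0.33 and 0.25 against wild-type replicate 2, so the sign followed the wild-type library. The authors' deposited table gave DEGseq q-values of 1.70e-16 for Mff, 7.55e-11 for Mief1 and 0.00177 for Mfn2. Of the 12135 tested genes, 4416 had a DEGseq q-value below 0.05 without passing limma. Mff, Mief1 and Mfn2 did not pass limma, whose moderated error joins the spread between a gene's own replicates with that of other genes.

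**Figure D2:**
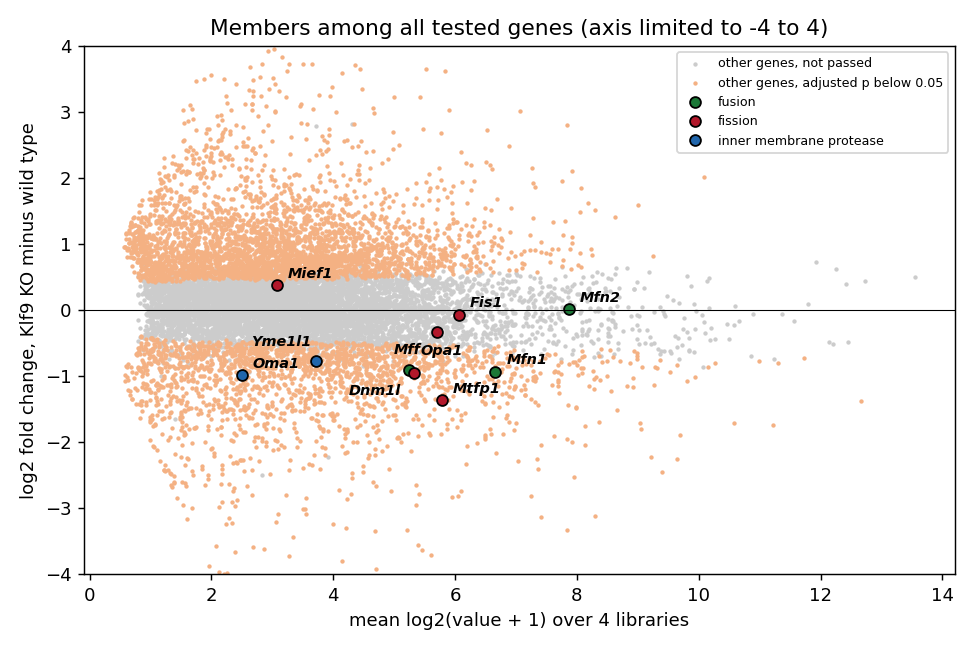
Log2 fold change (Klf9 KO minus wild type) against the mean log2(value + 1) over the 4 libraries for all tested genes, with the 10 genes in colour by role; 27 tested genes lie outside the axis of -4 to 4. Dnm1l and Opa1 lie beside each other at -0.96 and -0.90, Mtfp1 lies below them at -1.36, and Fis1 and Mfn2 lie near 0.

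The balance between partners was read as the log2 ratio of 2 genes within a library, where a library's scaling cancels. With 2 libraries per group an exact permutation test cannot go below a two-sided p of 0.33, so these ratios are given without a test. The ratio of Mfn1 to Mfn2 was -1.08 and -0.38 in wild type and -1.69 in each knockout library. Both knockout libraries thus held less Mfn1 per Mfn2 than either wild-type library, with a mean difference of -0.96, though the wild-type libraries themselves differed by 0.70. The ratio of Mfn2 to Dnm1l was 2.55 and 1.59 in wild type and 3.08 and 3.07 in the knockout, higher in both knockout libraries.

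Opa1 and Dnm1l, inner membrane fusion against fission, both fell. Their ratio was 0.10 and -0.31 in wild type and 0.13 and -0.23 in the knockout, so the groups overlapped and their means differed by 0.05. The libraries of a group differed by 0.41 in wild type and 0.36 in the knockout, so an unaltered ratio is not shown. For the proteases the ratio of Oma1 to Yme1l1 was -0.92 and -1.50 in wild type and -1.78 and -1.38 in the knockout, again overlapping. Mtfp1 to Dnm1l was 0.83 and 0.52 in wild type and 0.21 and 0.33 in the knockout, lower in both knockout libraries.

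**Figure D3:**
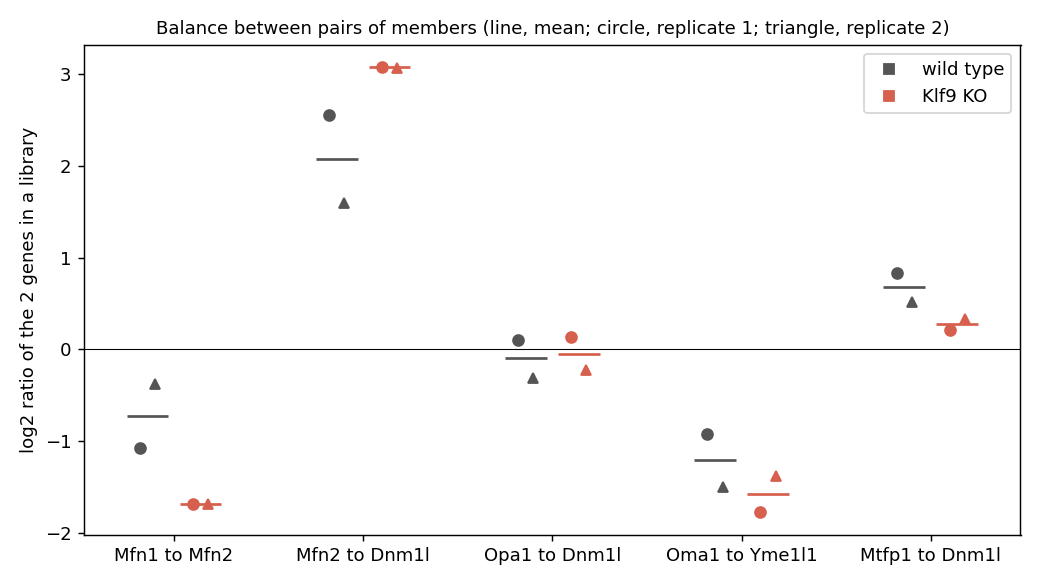
Log2 ratio of 2 genes within each heart library for 5 pairs, with wild type in grey and Klf9 KO in red and a line at the mean of each group. The groups are apart for Mfn1 to Mfn2, Mfn2 to Dnm1l and Mtfp1 to Dnm1l and overlap for Opa1 to Dnm1l and Oma1 to Yme1l1; the absolute height of a pair has no meaning because the unit is not known.

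Promoters were read because 6 of the 10 genes moved together and Krüppel-like factors bind GC-rich and CACCC elements. Windows of the 250 bases before a start site were taken from RefSeq on build GRCm38.p6, and all 10 genes matched, with 15 windows. Windows of Mtfp1, Opa1, Mfn1 and Mfn2 are shown because they hold the extremes of the motif counts and the pair of mitofusins, with matches in capitals. They lie at chr11:4095432-4095681 (minus strand), chr16:29579084-29579333 (plus strand), chr3:32529232-32529481 (plus strand) and chr4:147904910-147905159 (minus strand), each printed 5′ to 3′ in the direction of the gene.
Mtfp1: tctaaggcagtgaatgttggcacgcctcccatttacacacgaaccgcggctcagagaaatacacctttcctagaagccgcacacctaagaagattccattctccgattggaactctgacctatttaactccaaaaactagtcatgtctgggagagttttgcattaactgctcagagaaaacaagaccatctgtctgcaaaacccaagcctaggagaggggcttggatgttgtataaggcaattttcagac
Opa1: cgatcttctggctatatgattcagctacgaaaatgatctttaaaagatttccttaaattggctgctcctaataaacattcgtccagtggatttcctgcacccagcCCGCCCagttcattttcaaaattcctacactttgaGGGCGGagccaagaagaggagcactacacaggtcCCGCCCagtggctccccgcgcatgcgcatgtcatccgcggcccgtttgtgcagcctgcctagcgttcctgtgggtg
Mfn1: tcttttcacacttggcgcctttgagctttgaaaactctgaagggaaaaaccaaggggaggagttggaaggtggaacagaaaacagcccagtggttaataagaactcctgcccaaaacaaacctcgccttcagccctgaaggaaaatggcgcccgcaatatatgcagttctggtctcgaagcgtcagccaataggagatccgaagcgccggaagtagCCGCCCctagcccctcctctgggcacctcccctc
Mfn2: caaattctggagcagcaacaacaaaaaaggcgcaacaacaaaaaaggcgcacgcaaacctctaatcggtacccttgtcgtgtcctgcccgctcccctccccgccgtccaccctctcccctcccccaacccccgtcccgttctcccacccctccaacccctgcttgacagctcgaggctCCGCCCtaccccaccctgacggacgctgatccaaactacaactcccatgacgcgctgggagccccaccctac

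Each motif was searched on both strands, and overlapping matches were counted separately. The GC box GGGCGG was present for 9 of the 10 genes, in 12 of 15 windows, against 32.7% of all 32851 windows and 35.4% of genes. This background was not matched for expression or for G and C content. That content ran from 45.6% (Mtfp1) to 70.8% (a window of Dnm1l) among the 15 windows. The windows of Mff overlap and share their match. Mtfp1, which fell most, was the gene without a match, and its window held 45.6% G and C, below the median of 52.4% over all windows. Opa1 had 3 matches. Mfn1, which fell, had 1 match in its only window. Mfn2, which did not pass, had 1 in the window shown and 0 in each of its other 2 windows. The CACCC element CCACACCC was in 1 window, that of Mief1, against 3.2% of all windows. The element TNAAGGTCA, to which estrogen-related receptors bind at genes of energy metabolism, was in 0 of the 15 windows, against 1.1% of all windows. A match is a stretch of letters in the reference and says nothing of binding in these hearts.

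Other genes of mitochondrial dynamics and transport moved both ways. Of 28 measured, 26 were tested: 7 fell, 3 rose and 16 did not pass, with a median log2 fold change of -0.34 (-0.45 relative to all tested genes). Of all tested genes, 17.0% fell and 27.7% rose. The largest fall was in Trak2, an adaptor that links mitochondria to motor proteins, from 93.8 and 77.5 to 39.2 and 39.9 (-1.09 ± 0.19, limma adjusted p = 0.00199). Its partner Rhot2 (Miro2), an outer membrane GTPase, went from 85.4 and 65.3 to 41.1 and 43.3 (-0.81 ± 0.20). The third was Sh3glb1 (endophilin B1), which bends membranes, at -0.69 ± 0.20.

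Those that rose were Mtfr2, Msto1 and Dnm2. Mtfr2, of a family that promotes fission, went from 0.25 and 0.34 to 1.11 and 1.84, and passed the filter on low values only through the knockout libraries. Msto1, a cytosolic protein tied to fusion, went from 7.39 and 7.23 to 13.2 and 15.8 (0.89 ± 0.17). Dnm2, a dynamin of membrane scission, went from 45.2 and 34.3 to 58.5 and 60.9 (0.59 ± 0.20) and did not pass after RLE scaling. Trak1 (0.24), Mtch2 (-0.53) and Mtfr1l (-0.49) did not pass. Without knockout replicate 2, Trak2 was the only one of the list lower and Mtfr2 the only one higher. RLE scaling gave 11 lower and 2 higher genes, and without the filter there were 2 lower.

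Further proteases and scaffolds of the inner membrane and matrix fell in 7 of 14 cases and rose in 0, where 17.0% of all tested genes fell and 27.7% rose. Their median stood -0.67 from that of all tested genes. Stoml2, a scaffold that binds proteases, is counted in both lists. Immp2l, a subunit of the inner membrane peptidase, went from 10.6 and 18.1 to 2.75 and 2.70 (-2.0 ± 0.24, limma adjusted p = 0.000264). Clpp, the matrix protease, went from 39.5 and 54.1 to 22.8 and 27.8 (-0.85 ± 0.21), and Afg3l2, a subunit of the m-AAA protease, changed by -0.64 ± 0.18. The prohibitins Phb2 (0.20) and Phb (-0.48) and the stress relay protein Dele1 (-0.40) did not pass. Immp2l and Clpp were the 2 genes of this list still lower without knockout replicate 2, and 0 were higher.

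A reference list of general mitochondrial genes fell in part as well. It had 4 of 14 genes lower, where 17.0% of all tested genes were, and the other 10 missed the threshold. The median log2 fold change of this list was -0.42, beside -0.84 for the fusion and fission genes. Timm23, the channel of inner membrane import, fell by 1.0 on the log2 scale, and the chaperones Hspa9 and Hspd1 fell by 0.96 and 0.84. Citrate synthase (Cs), often used as an index of mitochondrial content, stood at 705 and 699 in wild type and at 690 and 658 in the knockout (-0.06 ± 0.22, limma adjusted p = 0.850). The carriers Slc25a4 (-0.74) and Slc25a3 (-0.44) did not pass. The list had 0 genes past the threshold and a median of -0.41 without knockout replicate 2. The summed value of this list was 6166 and 8203 in wild type and 4844 and 4897 in the knockout. Wild-type replicate 2 thus stood above replicate 1 here, as it did in 9 of the 10 fusion and fission genes. It also did so in the sum over all genes (489534 against 426032). The share of all tested genes with that order was not computed, so it is not shown to be particular to mitochondrial genes.

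Hearts are mixtures, and in bulk RNA fewer cells of a type and less RNA per cell cannot be told apart. The counts of markers over the 4 libraries stand beside 17.0% of all tested genes lower and 27.7% higher. Cardiomyocyte markers, which the tissue label calls for, were present in every library, with a sum of 18330 and 21297 in wild type and 17998 and 16139 in the knockout, with 1 of 6 lower (Tnni3). Fibroblast markers summed to 418 and 565 against 1034 and 1099, with 3 of 6 higher and 1 lower. Smooth muscle and pericyte markers summed to 266 and 332 against 411 and 499, with 4 of 6 higher and 1 lower. Endothelial markers summed to 392 and 394 against 515 and 530, with 3 of 6 higher.

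Macrophage markers summed to 193 and 332 in wild type and to 55.3 and 55.7 in the knockout, with 5 of 6 lower. Epicardial markers summed to 15.5 and 19.5 against 52.0 and 51.8, with all 5 tested of 6 higher. Krt19, Upk3b and Msln among them passed the filter on low values only through the knockout libraries, so their calls are partly set by the filter. Erythroid markers summed to 11074 and 10827 against 18941 and 12511, with 0 of 5 tested past the threshold. Of the skeletal muscle markers Myh2 was at the smallest step, 0.01, in all 4 libraries. Their sum was 2381 and 1771 against 1654 and 1627, with 1 of 2 tested lower (Acta1). Nearly all of it was Ckm (1566 and 1457 against 1608 and 1556) and Acta1 (814 and 313 against 45.2 and 70.9). Myh1, Myh4 and Tnnt3 stood at 1.09 or less, so the sum says little of skeletal muscle. Without knockout replicate 2, 3 fibroblast, 2 smooth muscle and pericyte, 4 epicardial and 0 endothelial markers were higher, and 4 macrophage and 0 cardiomyocyte markers were lower. The part of these cell types in the fall of the fusion and fission genes was not tested.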

How the data were processed

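The libraries were grouped by their titles, which also give the replicate numbers. The authors deposited log2 ratios of knockout over wild type for each pair of libraries and for the groups, with p-values from a Poisson comparison and p-values and q-values from DEGseq, per the file headers. False discovery rates deposited by the authors reach above 1 and were not used. Neither labels nor headers name an aligner, a build, a unit or a depth.

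The 4 ratios of a gene were additive to within 9.9e-14. Continued fractions turned them into 4 whole numbers without a common factor, read as values in steps of 0.01, for all 17485 genes. The step is an assumption, and a factor common to a gene's 4 values is lost, which leaves its ratios right but its level too low. Where a ratio was missing, both of its libraries were set to 0.01.

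The main test was limma 3.58.1 in R 4.3.3 (trend and robust) on log2(value + 1) with group as the only term, over the 12135 genes that reached a value of 1 in 2 or more libraries. Fold changes on this scale understate those of low genes. The SEs given are moderated, so they rest in part on the spread of other genes. The recovery and the test were tested on simulated data. Alternatives were scaling by RLE or upper quartile, other filters (none, or a minimum of 5), other pseudocounts (0.1 or none), non-robust moderation, a replicate block and leaving out each library. The 10 genes and all lists were chosen with earlier results of these data known. From each further list of mitochondrial genes, the text names the 3 with the lowest p per direction that passed and the 3 with the highest mean that did not. Python 3.11.15 and matplotlib 3.10.9 served for the other steps.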

Additional observations from a re-analysis of the deposited data

How the results depend on the processing

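Mtfp1 and Oma1 were lower under all 12 alternatives, Opa1 and Dnm1l under 11, and Mfn1 and Yme1l1 under 10. With each library left out in turn, 2 to 7 of the 10 genes were lower and 0 to 1 higher, while all tested genes had 1100 to 3261 lower and 1859 to 4327 higher. The list of other dynamics genes had 1 to 12 lower and 1 to 5 higher under the same omissions, 11 lower after RLE scaling and 2 lower with no filter. The sign of Mfn2 turned with RLE (-0.09) and upper quartile (-0.03) scaling. Without each library in turn Mfn2 ranged from -0.24 to 0.29, Fis1 from -0.20 to 0.06 and Mff from -0.68 to 0.03. Leaving out a library leaves 1 residual degree of freedom fewer and a lone library in its group, whichever library it is. Over all tested genes, more passed without a wild-type library and fewer without a knockout library. Why the counts moved was not tested.

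The replicate numbers are shared by the groups, and the labels do not say whether they pair the libraries. Over genes, deviations of same-numbered libraries correlated at -0.035. That is a single contrast per group, which cannot exclude a pairing. With the replicate block 6 of the 10 genes were lower and 0 higher, and 2275 genes in all were lower and 3514 higher. The unknown depth limits what can be said of low values such as those of Oma1 and Mief1.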

Other observations

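The ratio of the groups in the authors' deposited table was not always within the range of the authors' pairwise ratios. For Oma1 the authors' deposited table gave a group log2 ratio of -0.94, while its 4 pairwise ratios ran from -1.37 to -1.04. Of 15872 genes with all 5 ratios, 3.97% had a group ratio outside their pairwise range, and Oma1 was the only one of the 10 fusion and fission genes. The sources used here do not say how the group ratio was formed. The cause was not tested.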
